A study of Mytilus galloprovincialis with 12 samples.

Results

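Chlorpyrifos (CHP) alone was compared with vehicle in the digestive gland of female mussels, *Mytilus galloprovincialis*, on the 4 dual color arrays titled for CHP without estradiol, out of 12 arrays in 3 groups of 4. The CHP mussels had 4.5 mg/L CHP in their aquaria for 4 days according to the labels. The methods describe 3 days in CHP, followed by an injection with the carrier solution and 1 further day in clean water. The vehicle mussels, which gave the RNA in the other channel of every array, had 0.02% DMSO in the water over the same 4 days and on day 3 received 50 µl of artificial sea water with 0.05% ethanol. No untreated mussels were on the arrays. The other arrays carried mussels injected in the adductor muscle with 25 pmol estradiol (E2), and mussels that had 3 days of 4.5 mg/L CHP before the same injection (CHP/E2), each against the vehicle RNA. Each treated sample was a pool of digestive gland pieces from 6 females collected in October, so values are averages over pooled animals and the spread among single animals was not measured. In such tissue samples fewer cells of a type and less RNA per cell cannot be told apart.

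CHP is an organophosphate insecticide whose activated form, the oxon, blocks acetylcholinesterase, the enzyme that ends cholinergic signalling. The digestive gland of bivalves takes up and digests food particles inside its cells, stores lipid and carries much of the biotransformation of foreign chemicals, and its lysosomes are a common target of pollutants. E2 is an estrogen that also acts on this gland in mussels.

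The probes were cDNA clones of mussel, each printed as 2 spots that were averaged here, and of the 1920 clones on the array the 1816 with a deposited ratio were tested. A value is the log2 of CHP over vehicle RNA on 1 array, so 1 stands for a doubling in CHP. The clones carry plate and well names only: none of these IDs (0 of 1920) occurs in the gene table used here, and the files hold neither gene names nor sequences. Clones are therefore given by ID, genes of a pathway, the tissue markers and clone sequences could not be examined, and clones that carry the same transcript cannot be recognised. Each array was fitted with the other 11 in 1 model (limma), and a clone was called where B, the log odds that its mean differs from 0, exceeded 0. Benjamini-Hochberg adjusted p-values over all 1816 clones are given beside it.

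The 4 CHP arrays differed in brightness and in the width of their ratios. The median signal of a clone spot was 1.48 to 2.37 times its local background in the CHP channel and 1.21 to 3.92 times in the vehicle channel, and 62.9% to 85.4% of the spots on an array stood more than 2 background SDs above the background in 1 channel or both. Replicate 2 gave the low end of each of these ranges. CHP was labelled with Cy5 on replicates 1, 2 and 4 and with Cy3 on replicate 3, whose sign was turned. Replicates 1 and 2 lay on 1 slide, and replicate 3 shared a slide with E2 replicate 4. The scan names number the CHP pools 2, 3 and 5 on replicates 1, 2 and 4 and the vehicle pools 2, 3 and 3, with no number for replicate 3. The SD of the ratios over all clones was 0.39, 0.30, 0.74 and 0.63 on replicates 1 to 4, so replicates 3 and 4 were the wider pair and replicate 2 the narrowest. Over all 1816 clones the ratios of replicate 2 correlated with those of replicates 1, 3 and 4 at r = 0.07, -0.32 and -0.27, whereas the other pairs of arrays gave r of 0.59 to 0.84 (across clones, which are not independent replicates). Values are therefore given for every array and, where it matters, without replicate 2.

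CHP changed a small share of the clones. Of the 1816 clones tested, 39 were called (2.15%), and 25 of them were higher in CHP (1.38%) while 14 were lower (0.771%). With median centring in place of loess the split was 14 higher and 3 lower, and with the deposited ratios 33 higher and 10 lower. The adjusted p was under 0.05 for 71 clones (3.91%), 48 higher and 23 lower. Among all clones, 215 had a ratio above 0 on each of the 4 arrays (11.8%) and 213 below 0 on each (11.7%). Of the 39 called clones, 38 had 1 direction on all 4 arrays. This follows largely from the call, which favours a mean far from 0 for its spread. The called rises ran between 1.33-fold and 3.53-fold and the called falls left between 25.8% and 78.4% of the vehicle level, with a median SD of 0.32 over the 4 arrays. Without replicate 2 the count was 52, and without replicate 3 it was 22. Fitted alone, without the spread of the other treatments, the 4 CHP arrays gave 15.

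The called clone with the largest mean rise was Myt01-008E11. Its normalized intensities were 478, 304, 1263 and 641 in CHP on replicates 1 to 4, against 164, 81.2, 355 and 160.4 in vehicle. The ratios of 1.55, 1.91, 1.83 and 2.00 lay close together, and CHP was above vehicle on every array. The mean was 1.82 ± 0.19 (SD, n = 4), or 3.53-fold, with a standard error of 0.14 and an adjusted p of 7.34e-05 in limma. The vehicle signal exceeded background on 3 of the 4 arrays, so the size of the ratio rests in part on a dim channel. Over 21 alternative settings its mean ran between 1.08, without background correction, and 2.41, with plain subtraction. With the deposited ratios it was 2.32.

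Myt01-001E05 and Myt01-006D10 followed among the clones with 1 direction. Myt01-001E05 had 1343, 1256, 6699 and 1589 in CHP and 744, 661, 2063 and 570.2 in vehicle, a mean of 1.24 ± 0.41 (SD, n = 4, adjusted p = 0.00359, limma). Myt01-006D10 had 1948, 874, 7679.7 and 1301 in CHP and 762, 480.4, 2799 and 759 in vehicle, with a mean of 1.11 ± 0.34 (SD, n = 4, adjusted p = 0.00498, limma). Both were higher in CHP on every array by 0.78 or more on the log2 scale, with the highest ratio on replicate 3.

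Myt01-013D11 had the smallest spread of the called rises. It read 2415, 911, 6431 and 2198 in CHP, against 1387, 598, 4059 and 1367 in vehicle. The ratios were 0.80, 0.61, 0.66 and 0.68, a mean of 0.69 ± 0.08 (SD, n = 4), or 1.61-fold (adjusted p = 0.000157, limma). Myt01-001F11, at 0.85, 0.89, 0.67 and 0.74 and a mean of 0.79 ± 0.10 (SD, n = 4), was as even. Replicate 2 gave the lowest ratio of Myt01-013D11 and the highest of Myt01-001F11. With median centring in place of loess Myt01-013D11 had a mean of 0.45 and was not called (adjusted p = 0.458, limma).

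**Figure D1:**
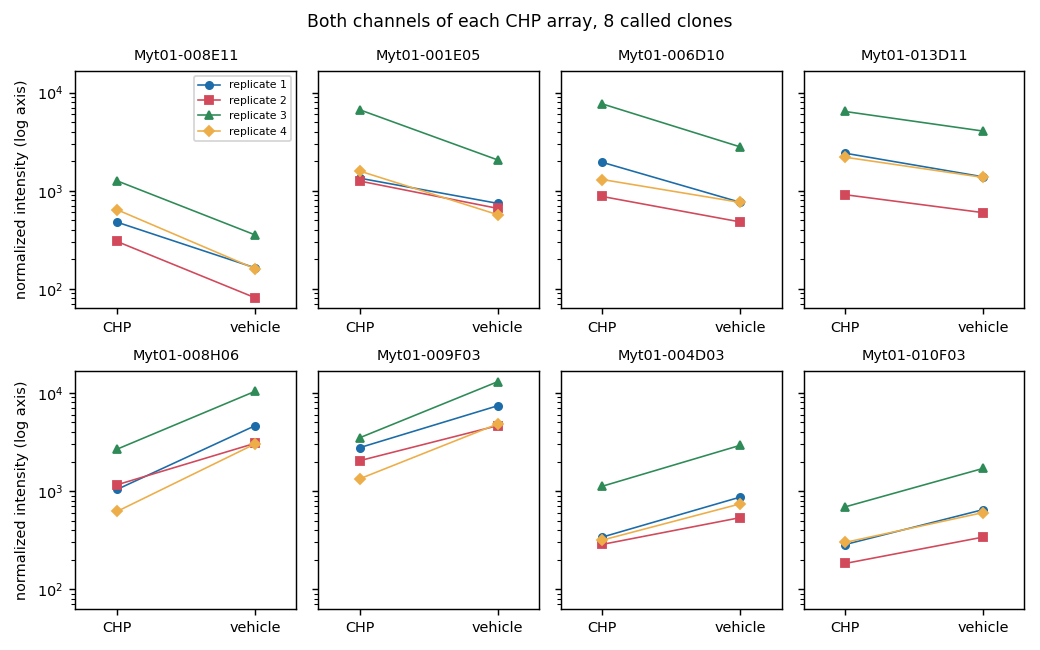
Normalized intensity (log axis) of the CHP and the vehicle channel on each of the 4 CHP arrays for 8 called clones, with a line joining the channels of 1 array. The CHP end lies above the vehicle end on all 4 arrays in the upper row and below it on all 4 in the lower row, while replicate 3 is the brightest array throughout.

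A second set of rises was uneven over the arrays. Myt01-002H05 gave ratios of 0.77, 0.79, 1.45 and 1.25, a mean of 1.06. Myt01-002E05 gave 0.53, 0.82, 1.48 and 1.39, a mean of 1.06, and Myt01-003E05 gave 0.57, 0.36, 1.27 and 1.11, a mean of 0.83. All of them were higher on replicates 3 and 4 than on replicates 1 and 2. The same order held for Myt01-001F04 (0.52, 0.66, 1.22 and 1.05), Myt01-001F05 (0.57, 0.51, 1.17 and 1.01), Myt01-001G05 (0.43, 0.61, 1.14 and 0.94) and Myt01-002H03 (0.36, 0.65, 1.09 and 1.14). Their adjusted p-values (limma) lay between 0.00359 and 0.0188. No array of these 7 clones had a ratio under 0.36, so the direction was shared and the size was not.

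Other rises of the leading 15 were bright, dim or highest on replicate 4. Myt01-009D08, a bright clone with 7150.1, 3252, 20175 and 7529 in CHP and 3435, 1722, 7907 and 5195 in vehicle, was lowest on replicate 4 (1.06, 0.92, 1.35 and 0.54, mean 0.97). Myt01-010D05 was highest there (0.66, 0.42, 0.69 and 1.55, mean 0.83), and so was Myt01-010D04 (0.70, 0.34, 1.05 and 1.31, mean 0.85). Myt01-001E12 (0.70, 0.35, 1.48 and 1.67, mean 1.05) was dim: its vehicle signal exceeded background on 1 of the 4 arrays, with 168, 101, 411 and 250.0 in CHP and 104, 79.1, 147 and 78.5 in vehicle. The other 9 called rises with 1 direction had means between 0.42 and 0.77.

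The falls came in 2 sizes. Of the 14 clones called lower, 5 fell by more than 1 on the log2 scale and the other 9 had means between -0.46 and -0.35, with no called clone between these ranges.

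Myt01-008H06 fell most. Its intensities were 1036, 1156, 2668 and 618 in CHP, against 4627, 3063, 10377 and 3017 in vehicle. The ratios of -2.16, -1.41, -1.96 and -2.29 gave a mean of -1.95 ± 0.39 (SD, n = 4), which is 25.8% of the vehicle level, with an adjusted p of 0.000123 (limma). It was lower in CHP on every array, and least so on replicate 2. Myt01-009F03 had 2767, 2038, 3489.7 and 1331 in CHP and 7400.3, 4641, 13018 and 4827 in vehicle, a mean of -1.59 ± 0.35 (SD, n = 4, adjusted p = 0.000529, limma), or 33.2% of vehicle. Here too replicate 2 had the smallest fall.

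Myt01-004D03 and Myt01-010F03 had the most even of the large falls. Myt01-004D03 had 339, 285, 1119 and 316 in CHP, against 868, 535, 2927 and 740.2 in vehicle, and ratios of -1.36, -0.91, -1.39 and -1.23 (mean -1.22 ± 0.22, SD, n = 4, adjusted p = 0.00324, limma). Myt01-010F03 had 284, 182, 688 and 299 in CHP, against 646, 339, 1699 and 602 in vehicle, and ratios of -1.18, -0.89, -1.30 and -1.01 (mean -1.10 ± 0.18, SD, n = 4, adjusted p = 0.00837, limma). Both were lower in CHP on every array, with the smallest SDs among the 5 large falls. Myt01-016D05 had the widest spread among them, with ratios of -0.87, -0.29, -1.84 and -1.16 (mean -1.04, adjusted p = 0.0232, limma), since replicate 3 fell far and replicate 2 little. In all 5 clones replicate 2 gave the smallest fall.

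The 9 small falls were Myt01-018C10 (-0.76, -0.26, -0.56 and -0.28), Myt01-006E02 (-0.59, -0.25, -0.32 and -0.46), Myt01-006D02 (-0.40, -0.18, -0.38 and -0.60), Myt01-011C10 (-0.55, -0.12, -0.51 and -0.29), Myt01-014D12 (-0.51, -0.29, -0.44 and -0.22), Myt01-014H09 (-0.50, -0.21, -0.37 and -0.36), Myt01-006C10 (-0.49, -0.18, -0.17 and -0.59), Myt01-007A04 (-0.58, -0.15, -0.48 and -0.20) and Myt01-014G02 (-0.50, -0.31, -0.19 and -0.41). All were below 0 on every array. Their size varied over the arrays, in Myt01-018C10 between -0.76 and -0.26, with standard errors of 0.06 to 0.09 and adjusted p-values (limma) of 0.00574 to 0.0232. None of the 9 was called with the CHP arrays fitted alone, with median centring or with the deposited ratios. After print-tip loess, with a curve for each printing block, only Myt01-006E02 was called among them. Of these 9, Myt01-006C10 was dim, above background on 3 of the 4 arrays in both channels.

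**Figure D2:**
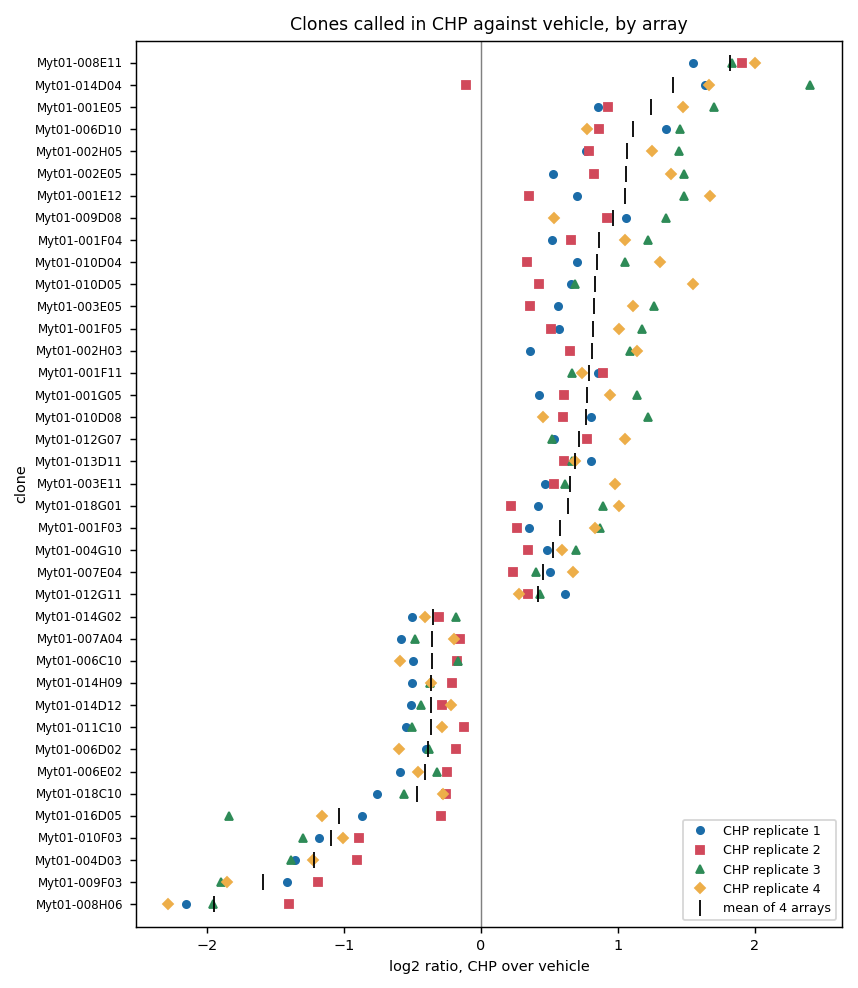
The log2 ratio of CHP over vehicle for each of the 39 called clones, with 1 symbol per CHP array and a bar at the mean. The 25 rises lie right of 0 and the 14 falls left of it on every array, except Myt01-014D04, whose ratio on replicate 2 is -0.11.

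At the threshold, the called clones with the lowest B were Myt01-018G01 (0.035), Myt01-014D04 (0.0362) and Myt01-006C10 (0.0426), and the clones just under it were Myt01-008C01 (-0.0124), Myt01-006C08 (-0.0954) and Myt01-009B07 (-0.18). Myt01-018G01 gave 0.42, 0.22, 0.89 and 1.01 and a mean of 0.64, while Myt01-009B07, not called, gave 0.91, 0.28, 0.72 and 0.82 and a mean of 0.68. Myt01-008C01 (0.51, 0.07, 0.35 and 0.41) and Myt01-006C08 (-0.51, -0.14, -0.44 and -0.30) were as even in direction as the small called changes. The adjusted p-values of these 6 clones (limma) lay between 0.0232 and 0.0261, so the border between them has little width.

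The 2 spots of a called clone mostly differed by less than its arrays did. For the called clones the spots of 1 array differed by a median of 0.04 on the log2 scale and by at most 0.67, in Myt01-001E12, and in none of the 156 pairs did they differ in sign. Over all clones the median difference was 0.07 and 1446 of 7264 pairs differed in sign. The calls were made on these same spots and favour ratios far from 0, so their shared sign follows largely from the choice. In 36 of the 39 called clones both channels exceeded background on all 4 arrays, against 932 of all 1816. The ratio nearest to 0 fell on replicate 2 in 22 of the 39 called clones, on replicate 1 in 8, on replicate 4 in 5 and on replicate 3 in 4.

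**Figure D3:**
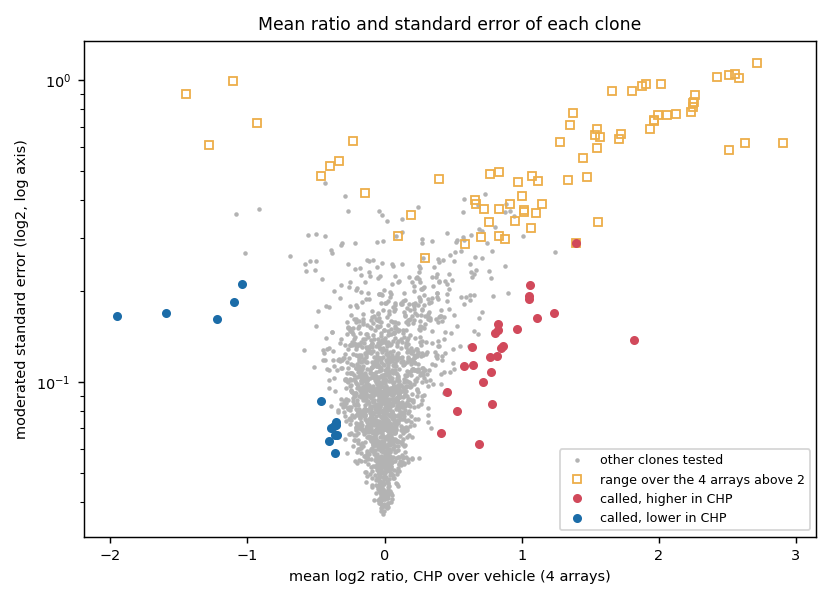
Mean log2 ratio of CHP over vehicle on the 4 arrays and its moderated standard error (log axis) for each of the 1816 clones. Called rises and falls lie far from 0 for their standard error, whose median was 0.12, against 0.09 over all clones. Most clones with a mean above 1 are open squares, which mark a range above 2 over the arrays, and were not called.

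The largest mean ratios were mostly not called. Of the 54 clones with a mean above 1, 7 were called, and of the 10 with a mean under -1, 5 were called. In the single arrays, 73 clones had ratios that ranged over more than 2 on the log2 scale, picked here by that range and described without a test, and 46 of the 54 were among them. In 59 of these 73 clones CHP was above vehicle on replicates 1, 3 and 4 and below it on replicate 2. Their medians were 1.03, -0.54, 3.18 and 2.61 on replicates 1 to 4.

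Myt01-013D04 gave 3.74, -0.22, 4.53 and 3.58, with intensities of 6229, 395, 27119 and 4764 in CHP, against 468, 459, 1171 and 399 in vehicle. Myt01-015C01 gave 1.99, -1.31, 5.67 and 4.53, Myt01-017F02 gave 3.03, -0.52, 4.59 and 3.42 and Myt01-015H05 gave 2.03, -1.31, 5.20 and 4.42. These 4 clones had the largest means of the set, 2.91, 2.72, 2.63 and 2.59, with standard errors of 0.62 to 1.14, and none was called by B. The adjusted p (limma) was 0.0261 for Myt01-013D04 and 0.039 for Myt01-017F02, against 0.198 for Myt01-015C01 and 0.177 for Myt01-015H05, and it was under 0.05 for 5 of the 73 clones. A smaller set of 6 clones had another pattern, above 0 on replicates 1 and 2 and below 0 on replicates 3 and 4. The widest of them, Myt01-009D11, gave 2.01, 1.34, -4.37 and -3.39, and Myt01-016E06 gave 0.89, 0.91, -2.75 and -2.76.

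The 2 spots of these clones differed by a median of 0.07 within an array. The difference reached 3.83 on 1 array in Myt01-007E02, more than that clone's range over the arrays, and 1.49 in Myt01-018A02, and in the rest of the 73 clones it was at most 1.004. The CHP signal exceeded background on all 4 arrays in 67 of the 73 clones and the vehicle signal in 62. Replicates 2 and 4 carry the same vehicle pool number in their scan names. Replicates 1 and 2 share a slide and the dye orientation. The part of the pool, slide or dye in this spread was not tested. Without the 73 clones every pair of CHP arrays correlated above 0 (r = 0.15 to 0.59 across 1743 clones), and the number of clones called was 41. As the 73 were picked by their disagreement over these arrays, the higher r of replicate 2 follows largely from the choice. Over all 1816 clones the rank correlations of replicate 2 with replicates 1, 3 and 4 were 0.19, -0.04 and 0.02. The other pairs gave 0.26 to 0.48. A range above 2 was passed by 26 clones on the E2 arrays and 65 on the CHP/E2 arrays.

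The one called clone of this kind was Myt01-014D04, which was also the only called clone without 1 direction. It had 768, 142, 3807 and 633 in CHP, against 248, 153, 719 and 199.5 in vehicle, and ratios of 1.63, -0.11, 2.41 and 1.67. CHP exceeded vehicle on replicates 1, 3 and 4, and replicate 2 lay just below 0. The mean of 1.40 ± 1.07 (SD, n = 4, adjusted p = 0.0232, limma) therefore stands for 3 arrays.

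**Figure D4:**
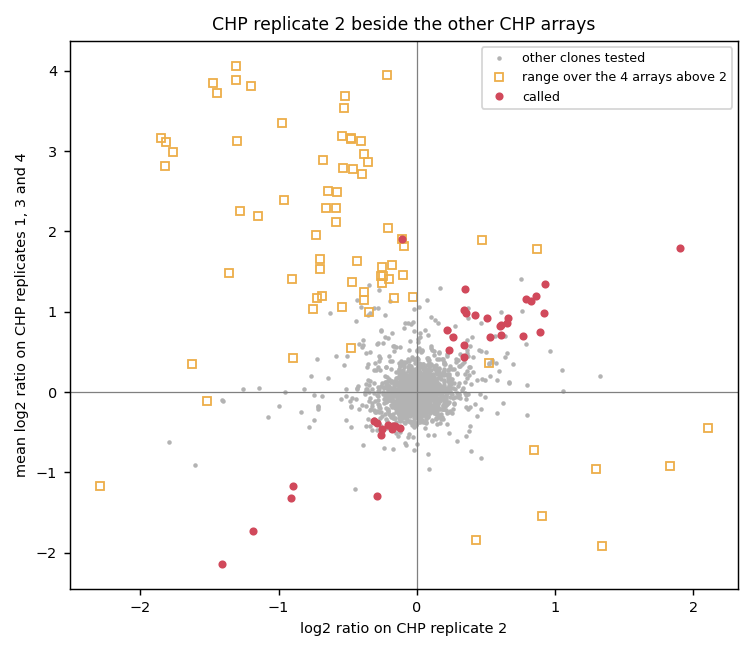
The log2 ratio on CHP replicate 2 against the mean log2 ratio on CHP replicates 1, 3 and 4 for each of the 1816 clones. Called clones (filled red) lie in the quadrants of shared direction apart from Myt01-014D04, while most clones with a range above 2 (open squares) lie above 0 on the 3 other arrays and below 0 on replicate 2.

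By position in the clone collection, the called clones came from 15 of the 20 source plates. Plate 1 held 7 of them, all higher in CHP, among its 94 clones tested (Myt01-001E05, Myt01-001E12, Myt01-001F03, Myt01-001F04, Myt01-001F05, Myt01-001F11 and Myt01-001G05). Their means ran between 0.58 and 1.24, while the median over the 94 clones of the plate was 0.01. Plates 1 to 3 held 12 of the 25 rises and 275 of the 1816 clones, and none of the falls. Without plate 1, 33 clones were called.

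The rises were also unevenly placed within plates, a feature noticed after the values were seen and given without a test. All 25 came from wells of rows D to H, which hold 1132 of the tested clones (62.3%), and 0 came from rows A to C with 684. The falls were 10 in rows D to H and 4 in rows A to C. With an adjusted p under 0.05, 41 rises lay in rows D to H and 7 in rows A to C. After print-tip loess, in which each printing block has its own curve, 28 called rises lay in rows D to H and 3 in rows A to C, and with the deposited ratios 31 and 2. The median ratio over all clones of a row lay between -0.02 and 0.02. Whether neighbouring wells carry related transcripts or share a step of printing was not tested.

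CHP and E2 differed in 4 clones. In CHP minus E2, a contrast of the same fit that asks which clones responded to the insecticide and not in like measure to the hormone, 4 of 1816 clones were called (0.22%), all higher in CHP. Myt01-008E11 gave 1.55, 1.91, 1.83 and 2.00 in CHP and 0.26, 0.22, 0.12 and 0.23 in E2, a difference of 1.61 ± 0.19 (SE, adjusted p = 0.00409, limma). Myt01-001F11 gave 0.85, 0.89, 0.67 and 0.74 in CHP and -0.11, 0.19, -0.30 and -0.11 in E2, a difference of 0.87 (adjusted p = 0.00921, limma). In both clones the E2 values lay between -0.30 and 0.26.

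Myt01-013D11 gave 0.80, 0.61, 0.66 and 0.68 in CHP and -0.16, -0.06, 0.01 and 0.02 in E2, a difference of 0.74 (adjusted p = 0.00409, limma). Myt01-012G07 gave 0.53, 0.77, 0.52 and 1.05 in CHP and -0.06, 0.09, -0.04 and 0.01 in E2, a difference of 0.72 with B of 0.36 and an adjusted p of 0.157 (limma). Of the 4 clones, Myt01-012G07 missed the adjusted threshold. On the slide that held CHP replicate 3 and E2 replicate 4 the difference was 1.60 for Myt01-008E11, 0.78 for Myt01-001F11, 0.65 for Myt01-013D11 and 0.50 for Myt01-012G07. Without CHP replicate 2, 16 clones were called in this contrast.

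CHP and CHP/E2 differed in 3 clones, all falls of CHP. In CHP minus CHP/E2, which sets the insecticide alone against the insecticide with the hormone, 3 of 1816 clones were called (0.165%). By the labels the CHP mussels had 4 days of CHP and the CHP/E2 mussels 3. The methods give both groups 3 days in CHP before the injection and 1 day in clean water after it. If the labels hold, the hormone and the length of exposure cannot be told apart here. Myt01-008H06 gave -2.16, -1.41, -1.96 and -2.29 in CHP and 0.21, 0.09, 0.25 and -0.55 in CHP/E2, a difference of -1.95 ± 0.23 (SE, adjusted p = 0.00786, limma). Myt01-009F03 gave -1.42, -1.19, -1.90 and -1.86 in CHP and 0.32, -0.03, 0.12 and -0.46 in CHP/E2, a difference of -1.58 (adjusted p = 0.0344, limma). In these clones the CHP/E2 means were near 0.

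Myt01-004D03 gave -1.36, -0.91, -1.39 and -1.23 in CHP and 0.36, 0.45, 0.18 and -0.57 in CHP/E2. Its difference was -1.33, with B of 1.32 and an adjusted p of 0.0691 (limma). The same 3 clones averaged -1.32 ± 0.31, -1.32 ± 0.42 and -0.86 ± 0.31 with E2 alone (SD, n = 4 each). The fourth large fall, Myt01-010F03, averaged -1.10 ± 0.18 in CHP, -1.04 ± 0.51 in E2 and -0.01 ± 0.43 in CHP/E2 (SD, n = 4 each), and its difference of CHP from CHP/E2 was not called (adjusted p = 0.184, limma). All 3 treatments were measured against vehicle RNA, in part from pools of the same number, so their ratios share that reference. Without CHP replicate 2, 20 clones were called in this contrast, and the count was 5 without CHP replicate 3, CHP/E2 replicate 2 or CHP/E2 replicate 4.

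**Figure D5:**
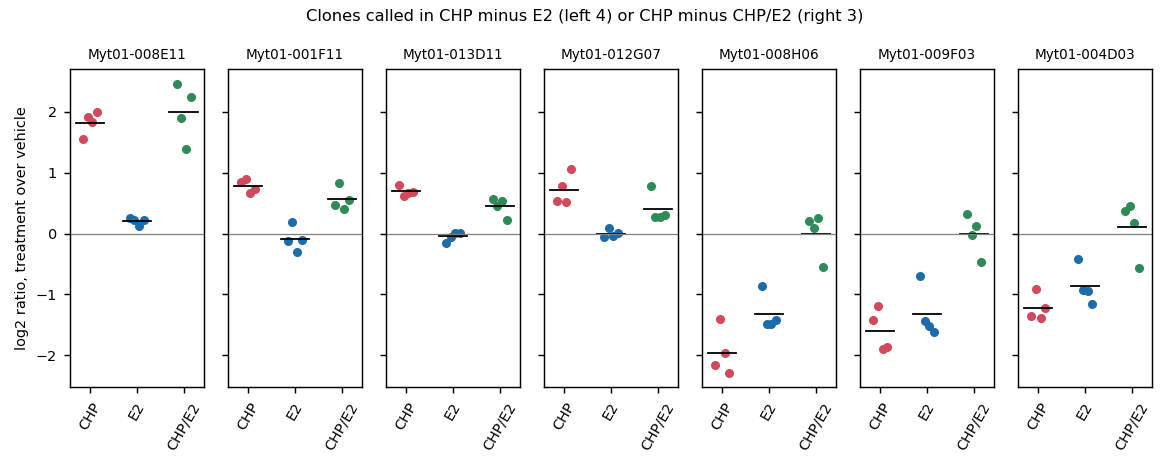
The log2 ratio of each treatment over vehicle on each array (points) and its mean (bar) for the 4 clones called in CHP minus E2 and the 3 called in CHP minus CHP/E2. The CHP points lie above all E2 points in the left 4 panels and below all CHP/E2 points in the right 3. As the clones were picked by these contrasts, this separation follows largely from the choice.

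Beside these, the called rises of CHP had a median of 0.82 in CHP, 0.26 in E2 and 0.49 in CHP/E2, and the called falls had -0.40, -0.16 and -0.01. The medians over all 1816 clones were -0.0033 in CHP, -0.0032 in E2 and -0.0087 in CHP/E2. As the clones were called on the CHP arrays, their CHP median is larger by choice. The largest rise, Myt01-008E11, averaged 1.82 ± 0.19 in CHP, 0.21 ± 0.06 in E2 and 2.00 ± 0.47 in CHP/E2 (SD, n = 4 each). Its difference of CHP from CHP/E2 did not pass (adjusted p = 0.716, limma), with the groups overlapping.

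The calls of 6 clones (Myt01-008E11, Myt01-001E05, Myt01-001F11, Myt01-008H06, Myt01-009F03 and Myt01-004D03) held in each of the 21 alternative settings run for single clones, 4 of which left out a CHP array. Leaving out 1 CHP array ended the call of other clones named above. Without replicate 1 this held for Myt01-002H05, Myt01-010F03, Myt01-016D05, Myt01-018C10, Myt01-006D02, Myt01-011C10, Myt01-014D12, Myt01-014H09, Myt01-006C10, Myt01-007A04, Myt01-014G02, Myt01-014D04 and Myt01-018G01. Without replicate 2 it held for Myt01-002H05, Myt01-002H03, Myt01-014D12 and Myt01-014G02. Without replicate 3 it held for Myt01-002H05, Myt01-002E05, Myt01-001E12, Myt01-003E05, Myt01-002H03, Myt01-010F03, Myt01-016D05, Myt01-018C10, Myt01-006D02, Myt01-011C10, Myt01-014D12, Myt01-007A04, Myt01-014D04 and Myt01-018G01, and without replicate 4 for Myt01-002H05, Myt01-002E05, Myt01-001E12, Myt01-003E05, Myt01-002H03, Myt01-016D05, Myt01-006D02, Myt01-011C10, Myt01-006C10, Myt01-014G02, Myt01-014D04 and Myt01-018G01. No named clone changed direction in any of these settings.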

How the data were processed

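RNA of treated pools was hybridised with vehicle RNA on 12 dual color cDNA arrays. The scan names number the E2 pools 1, 2, 3 and 2 on replicates 1 to 4, and the CHP/E2 pools 1, 2, 3 and 3. A number that recurs within a treatment may stand for the same pool, so n counts arrays, and the main fit took each array singly. With arrays of the same treated pool number averaged, 8 of the 33 called clones followed singly were not called. The authors deposited scanner intensities (the mean of each spot and the median of its local background in the Cy5 and Cy3 channels, not normalized) and a table of normalized log2 ratios, rounded to 2 decimals, made with limma. Its version and settings are not given in the sources used here. Set against that table, the recomputed ratios of each array ran in the same direction, with r no lower than 0.881.

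From the scanner intensities, background was corrected by normexp (offset 50). Loess was run within each array, giving weight 0 to the 720 spots that hold no clone. The 2 spots were averaged and the sign turned where Cy3 marked the treated RNA. One lmFit and eBayes fit (prior proportion 0.01) covered 12 arrays with 1 coefficient for each of the 3 groups, and differences were contrasts of it. Tests are two-sided. The 104 clones without a deposited ratio were left out. All deposited columns belonged to the 12 samples. The labels do not say whether pools came from separate tanks, so p-values measure the spread between these arrays. The software was limma 3.58.1 with statmod 1.5.0, under R 4.3.3. The fit was tested on simulated data with noise drawn independently for each array. Such data lack the unequal widths and shared slides of these arrays, so the test does not cover them.

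The number of arrays limits the precision. The comparison, the rule for named clones and the alternatives were chosen with earlier results of these data known. The rule named called clones with 1 direction on all 4 arrays (up to 15 largest rises and 15 largest falls), the 3 nearest to the threshold on either side, called clones without 1 direction, and the leading clones of the contrasts. Leaving out the widely varying clones or plate 1 and the split by well row were added after the data were seen.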

Additional observations from a re-analysis of the deposited data

Results flagged for a closer look

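The effect of CHP differed from that of E2, by the contrast of the fit, in Myt01-008E11 (1.61), Myt01-001F11 (0.87), Myt01-013D11 (0.74) and Myt01-012G07 (0.72, log2 CHP minus E2). It differed from that of CHP/E2 in Myt01-008H06 (-1.95), Myt01-009F03 (-1.58) and Myt01-004D03 (-1.33, log2 CHP minus CHP/E2). These clones passed by B, while the adjusted p (limma) was 0.157 for Myt01-012G07 and 0.0691 for Myt01-004D03. With median centring 1 clone was called in each contrast. Of the 104 clones that have spots in the scanner files and no deposited ratio, Myt01-002H04 was called when all 1920 clones were fitted. Its log2 ratios of CHP over vehicle were 0.90, 0.91, 1.75 and 1.60, a mean of 1.29 ± 0.45 (SD, n = 4, adjusted p = 0.00716, limma), with both channels above background on all 4 arrays. It neighbours Myt01-002H03 and Myt01-002H05, both called, in its plate. In none of 34 clones named for the CHP arrays did 1 array stand apart from the other 3 by Dixon's criterion. It left Myt01-010D05 unflagged at a gap of 0.76 of its range. Myt01-014D04 was also unflagged at 0.69, with replicate 2 at -0.11 and the nearest other array at 1.63. With 4 arrays the criterion therefore cannot show that the arrays agreed.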

How the results depend on the processing

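The count of 39 called clones (25 higher, 14 lower) depended on the model of the spread and on the normalization. It was 17 (14 higher, 3 lower) with median centring in place of loess, 15 (10 higher, 5 lower) with the CHP arrays fitted alone, 80 (51 higher, 29 lower) with the 2 spots kept separate, 92 (64 higher, 28 lower) with a dye term and 71 (48 higher, 23 lower) at an adjusted p under 0.05. Plain subtraction gave 9 lower, and the slide as a random block gave 7 lower. With the deposited ratios 43 clones were called, of which 28 were among the 39. With each of the 12 arrays left out in turn the counts ran 22 to 52 in all, 15 to 39 higher and 6 to 13 lower, with 6 lower without CHP replicate 1 and 7 without CHP replicate 3. The lowest total was without CHP replicate 3 and the highest without CHP replicate 2, and 15 were higher without CHP replicate 3 or CHP replicate 4. The 4 clones of CHP minus E2 became 1 with median centring, 20 with separate spots and 9 with a dye term, and 3 to 16 with an array left out. The 3 clones of CHP minus CHP/E2 became 1, 28 and 8 in the same settings, 7 with the deposited ratios, 9 with array weights, and 2 to 20 with an array left out. The causes were not tested. Replicate numbers were not used to pair the samples in the main fit. The correlation of deviations ran between -0.45 and 0.60 and exceeded 0.1 in 6 of 12 pairs of same-numbered arrays. With the number as a replicate block 29 clones were called, 22 higher and 7 lower, and 11 of the 33 called clones followed singly were lost. Of the 33 called clones followed singly, 6 held in every one of the 21 settings and none reversed. Median centring ended the call of 21 of these 33 clones, and fitting the CHP arrays alone that of 23.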
